A study of Mus musculus with 9 samples.

Results

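Liver expression of 9 uptake transporter genes was examined, 4 of the organic anion transporting polypeptide family (Slco1a1, Slco1a4, Slco1b2 and Slco2b1) and 5 of the organic anion and cation transporter family (Slc22a7, Slc22a26, Slc22a27, Slc22a28 and Slc22a30). They were chosen by gene symbol, with the condition that the value was above 0 in at least 1 liver, and all 9 met it among the 23183 genes of the tables. RNA-Seq was performed on the livers of male C57BL/6J mice, an inbred strain, at postnatal day 100, with 3 mice in each of 3 groups and 1 library per mouse. The ND group (mice 6, 7 and 9) received a normal diet and the HFD group (mice 1, 2 and 3) a high-fat diet. The PRF 50 group (mice 3, 9 and 10) received the high-fat diet and, by mouth in its later weeks, 50 mg/kg of PRF, a fraction rich in polymethoxyflavones from the leaves of Jinkyool, a citrus plant. The labels name no genetic alteration. Mouse numbers are names only, and the same number in different groups marks different animals. Values are on the log2(FPKM + 1) scale, where FPKM counts fragments per kilobase of transcript relative to library size, so that levels of different genes can be compared per length.

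The members of both families sit in cell membranes and carry organic ions across them. In the liver, those on the blood-facing side of hepatocytes bring bile acids, bilirubin, steroid conjugates and many drugs into the cell, and so stand at the entry to hepatic metabolism and biliary excretion. Several members are known to differ between the sexes in rodent liver, with Slco1a1 higher in males and Slco1a4 higher in females.

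In these livers, the member with the widest spread of group means was Slc22a27, which lies in a cluster of Slc22 genes on chromosome 19. It was high in the HFD group alone, at 6.59 ± 2.01 FPKM (mean ± SD, n = 3), against 0.736 ± 0.123 FPKM on the ND and 0.600 ± 0.317 FPKM with PRF 50. Its neighbour Slc22a28 was lower on the HFD than on the ND, a call that several alternatives ended. In the PRF 50 group compared with the ND group, Slco1a4 was lower and Slc22a7 was higher, and several alternatives ended these calls as well. Slco1b2, by far the most abundant member, passed the test in no comparison.

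The position of the genes bears on how separately they can be read. In GENCODE M21 on GRCm38, Slc22a26 (chr19:7781041-7802667), Slc22a27 (chr19:7864388-7966027), Slc22a28 (chr19:8062209-8131982) and Slc22a30 (chr19:8335371-8405111) lie one after another on the minus strand, with the non-member Slc22a29 (chr19:8160165-8218900) between the last 2. Slc22a7 lies alone at chr17:46432183-46438457, also on the minus strand. Slco1b2 (chr6:141629518-141686646, plus strand), Slco1a4 (chr6:141805440-141856199, minus strand) and Slco1a1 (chr6:141907282-141946962, minus strand) are neighbours on chromosome 6. Slco2b1 is at chr7:99657804-99711340 on the minus strand, where the antisense genes Gm15635 and Gm34280 overlap it. Whether the counting used strand is not given in the sources used here, so reads of Slco2b1 and of those antisense genes may not have been kept apart. On the same strand, the processed pseudogene AC122119.2 and the miRNA gene Gm24951 overlap the span of Slc22a27. Likewise, the RNA gene Gm22036 overlaps that of Slco1a1. Strand cannot separate such reads where exons overlap, which was not examined.

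Neighbours on chromosome 19 resemble each other. Of the 50-base words in the longest coding transcript of Slc22a28, 53.9% also occurred in another gene, and 53.3% occurred in Slc22a30. For Slc22a30 the share was 36.1%, with 32.0% found in Slc22a28. For Slc22a27 it was 30.5%, with 25.8% found in Slc22a29. Slc22a26 shared 5.88%, and the members on chromosome 6 shared at most 2.73%. No word of Slco1b2, Slco2b1 or Slc22a7 was found elsewhere. The levels of Slc22a27, Slc22a28 and Slc22a30 are therefore uncertain to the extent that reads could be assigned to either copy.

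**Figure D1:**
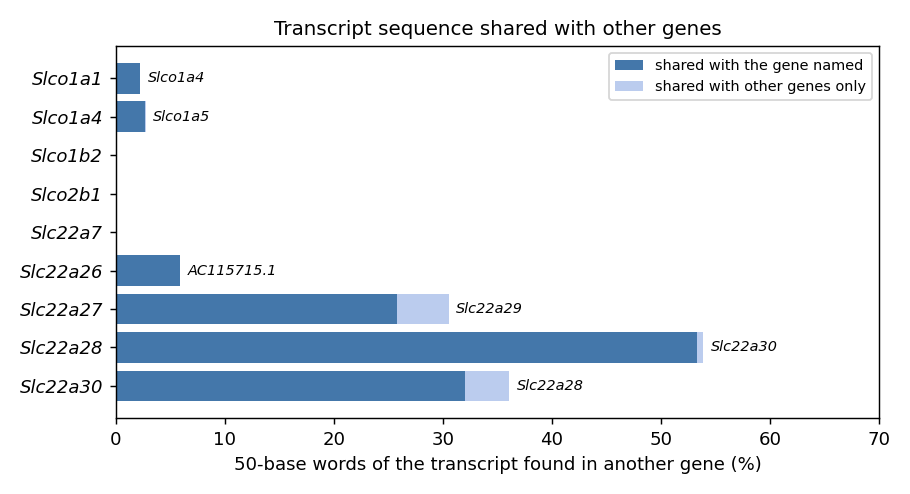
Percent of the 50-base words of each member's longest coding transcript (x axis) that occur in another gene, with the gene that shares the most words written beside each bar. Dark bars give the share held by the named gene and pale bars the share held by other genes only. Slc22a28 reached 53.9%, and Slco1b2, Slco2b1 and Slc22a7 stayed at 0.

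The likeness of Slc22a28 and Slc22a30 extends upstream of their start sites. The 250 bases before the start of both genes are shown because these neighbours moved to different degrees on the HFD, and those of Slc22a27 because it was the member that changed most. The sequences are from RefSeq on GRCm38.p6, on the minus strand and written 5′ to 3′, for Slc22a27 (chr19:7966028-7966277), Slc22a28 (chr19:8131983-8132232) and Slc22a30 (chr19:8405106-8405355). Capitals mark the positions at which the windows of Slc22a28 and Slc22a30 differ.
Slc22a28: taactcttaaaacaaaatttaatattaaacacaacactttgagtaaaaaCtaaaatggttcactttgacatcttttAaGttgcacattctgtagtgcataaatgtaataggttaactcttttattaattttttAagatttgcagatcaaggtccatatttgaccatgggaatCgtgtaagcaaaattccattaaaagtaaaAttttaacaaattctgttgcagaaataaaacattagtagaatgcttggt
Slc22a30: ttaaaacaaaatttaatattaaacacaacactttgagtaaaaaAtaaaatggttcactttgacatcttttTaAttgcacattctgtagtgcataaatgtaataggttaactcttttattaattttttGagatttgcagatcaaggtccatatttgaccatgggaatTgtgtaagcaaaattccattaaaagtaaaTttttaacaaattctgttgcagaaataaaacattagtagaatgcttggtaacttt
Slc22a27: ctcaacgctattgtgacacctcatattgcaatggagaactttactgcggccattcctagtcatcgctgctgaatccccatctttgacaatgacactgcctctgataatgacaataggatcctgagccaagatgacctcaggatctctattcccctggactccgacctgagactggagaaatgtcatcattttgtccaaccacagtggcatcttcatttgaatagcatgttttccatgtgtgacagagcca
The annotated starts of Slc22a28 and Slc22a30 were offset by 6 bases, and 238 of the 244 bases then in common were identical (97.5%). The window of Slc22a27 was identical to that of Slc22a28 at 33.1% of positions at the best ungapped offset. RefSeq windows were found for 8 members, 10 windows in all, and Slc22a7 had none among the sequences used. The letters TTCNNNGAA, which read the same on both strands and are the form bound by STAT5, a factor downstream of growth hormone, were searched in the 250 bases before each start. They occurred in 3 of the 10 windows, in those of Slco1b2 and Slc22a26 and in 1 of the 3 starts of Slco2b1, and in 7.02% of all 32851 windows of the same length. Of the 3 starts with the letters, only that of Slco1b2 matched the start of the longest coding transcript.

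The members covered a wide range of levels. Over the 9 livers, Slco1b2 averaged 626.2 FPKM and Slco1a1 133.0 FPKM, and each lay above the next member in every liver without overlap. Slc22a30 (36.28 FPKM) and Slco2b1 (35.57 FPKM) came next, and the former was the higher in only 5 of 9 livers. Slc22a7 (21.33 FPKM) and Slco1a4 (19.52 FPKM) likewise overlapped, with Slc22a7 above in 5 of 9 livers. Slc22a28 (3.71 FPKM), Slc22a27 (2.64 FPKM) and Slc22a26 (0.420 FPKM) were the lowest. Among these, Slc22a28 was above Slc22a27 in 6 of 9 livers, namely those of the ND and PRF 50 groups, and Slc22a27 was above in the 3 livers of the HFD group.

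**Figure D2:**
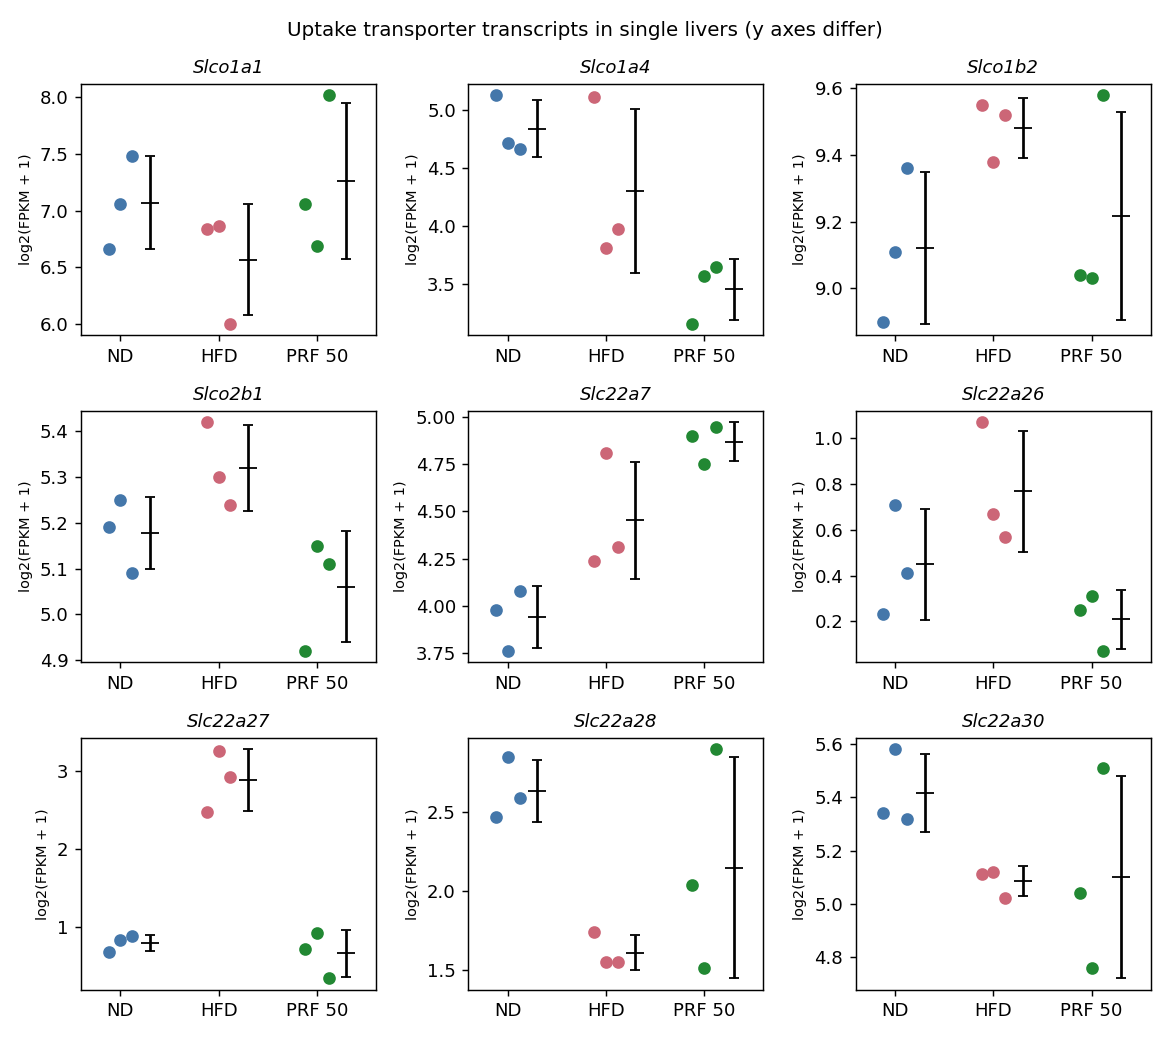
Level of each member, log2(FPKM + 1), in single livers, by group. Points are mice, and the bar beside each group gives the mean ± SD (n = 3); the y axes differ between panels and do not start at 0. The HFD mice lay between 2.48 and 3.26 for Slc22a27, above the other 6 mice, whose highest value was 0.92.

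A gene was tested with limma where it averaged 1 FPKM or more in the 6 mice of a comparison, and it was called at a Benjamini-Hochberg adjusted p under 0.05. With 3 mice against 3, an exact permutation test of a single gene cannot go below 0.1, so significance rests on the fit across all genes. Relative depth ranged from 0.963 to 1.60 times that of HFD mouse 1 and overlapped between groups, and 14372 to 14980 genes per mouse were above 0. The highest value of the tables (22.44) was that of the small RNA gene Rnu6 in HFD mouse 2. All 10 hepatocyte markers examined were present. By limma none of them was called in any comparison, and 2, 2 and 0 had an unadjusted p under 0.05 in HFD vs. ND, PRF 50 vs. HFD and PRF 50 vs. ND. Of 10 bile duct markers 3, 3 and 4 were tested in the same order, and of 10 stellate cell markers 9, 9 and 8. None of those tested was called by limma either, with at most 3 of a list at an unadjusted p under 0.05 in a comparison. The bile duct markers summed to 58.9 to 77.8 FPKM (Sct at 0) and the stellate cell markers to 65.8 to 145 FPKM over the livers. In PRF 50 vs. ND all 8 stellate cell markers tested were higher (median 0.44), and their part in the results was not tested. Markers of kidney and intestine together stayed at or below 0.0976 FPKM in every liver, and 5 of those 10 were at 0 in all 9. The share of all tested genes with an unadjusted p under 0.05 alone was not counted, so such numbers have no background here. The 3 comparisons share groups, so they are not independent of each other.

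The comparison of HFD with ND addressed the effect of the diet. Slc22a27 rose and Slc22a28 fell, and these were 2 of the 8 members tested, where 1.33% of all 9978 tested genes were called. Slc22a27 reached the minimum level only through the HFD mice, so it had to differ to be tested and its call is a description. Without a minimum level Slc22a27 was still called (adjusted p = 0.0276 in limma). Slc22a26 was below the minimum level. Both called members also passed the criterion of an unadjusted p under 0.05 with a fold above 2, which 1.34% of all genes met. For 5 of the 8 members (62.5%) the groups did not overlap, against 20.7% of all tested genes. Slc22a27, Slc22a7 and Slco1b2 were the higher ones, and Slc22a28 and Slc22a30 the lower ones. This count includes Slc22a27, which had to differ to be tested, and Slc22a28 and Slc22a30, whose reads can be confused. It is therefore a description too. The median difference of the tested members was -0.095, and that of all tested genes was -0.009 on the log2 scale.

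The comparison of PRF 50 with HFD addressed the effect of PRF on the same diet. The fall of Slc22a27 was the only call among 8 members tested, where 3.59% of all 10084 tested genes were called (2.16% as lower). Slc22a27 was also the only member past p under 0.05 with a fold above 2 (2.1% of all genes, 1.04% as lower). Again it reached the minimum level only through the HFD mice, so its call is a description. The call was kept without a minimum level (adjusted p = 0.03958 in limma). The groups did not overlap for 3 of the 8 (37.5%), namely Slc22a27, Slco1a4 and Slco2b1, all lower in the PRF 50 group, against 26.2% of all tested genes (15.3% as lower). As this count includes Slc22a27, it is a description too. The median difference of the members was -0.121 (all genes, -0.015). Markers of Kupffer cells, the resident macrophages of the liver, moved with this comparison. Of 10 such markers 9 were called higher in the PRF 50 group, their summed level was 370 to 610 FPKM there against 111 to 177 FPKM for HFD and 92.4 to 217 FPKM for ND, and none of them was at 0. Their part in the results on the members was not tested. Cells of a type becoming fewer and cells holding less of an RNA cannot be told apart in whole liver.

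In PRF 50 compared with ND, 2 of 7 members tested were called, Slc22a7 as higher and Slco1a4 as lower, where 0.458% of all 10051 tested genes were called. Only Slco1a4 had a fold above 2 as well, a criterion that 1.76% of all genes met. The groups did not overlap for the same 2 members (28.6%), against 19.9% of all tested genes. Slc22a26 and Slc22a27 were below the minimum level. The median difference of the tested members was -0.117 (all genes, -0.031). The Kupffer cell markers were again higher in the PRF 50 mice, with a median difference of 1.40, and although limma called none of them, all 10 had an unadjusted p under 0.05. Their part in the results on Slco1a4 and Slc22a7 was not tested.

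**Figure D3:**
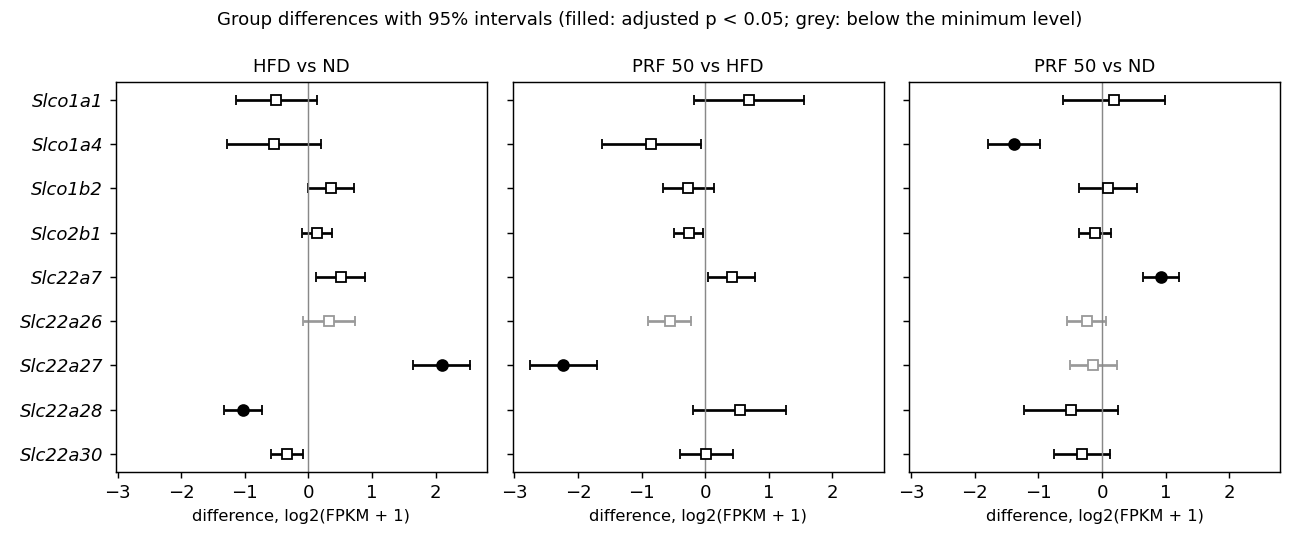
Difference between group means, log2(FPKM + 1), of each member in the 3 comparisons, with 95% intervals from limma. Filled circles mark an adjusted p under 0.05, open squares members not called, and grey squares members below the minimum level, whose interval is from the fit without a minimum. Slc22a27 stood at 2.10 for HFD vs. ND and at -2.23 for PRF 50 vs. HFD.

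Slco1b2 encodes the main liver-specific transporter of its family in rodents, which takes up bilirubin, bile acids and statins. Its level was 8.90, 9.11 and 9.36 in the ND mice, 9.55, 9.38 and 9.52 in the HFD mice, and 9.04, 9.03 and 9.58 in the PRF 50 mice. The HFD mice were all above the ND mice, by 0.36 ± 0.16 (SE) on the log2 scale, but the adjusted p of limma was 0.331. Compared with HFD, the PRF 50 mean differed by -0.26 (adjusted p = 0.444), and PRF 50 mouse 10 lay above all HFD mice. Without that mouse the difference was -0.44 (adjusted p = 0.1358 in limma), and without PRF 50 mouse 3 or 9 it was -0.18 or -0.17. Slco1b2 made up 71.5% to 86.4% of the summed FPKM of the 4 Slco members in single livers. This share was 73.7% ± 0.159 for ND, 82.1% ± 3.79 for HFD and 75.0% ± 3.29 for PRF 50 (SD, n = 3), and the lowest HFD liver (79.8%) was above the highest PRF 50 liver (78.0%).

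Slco1a1, a male-predominant transporter of sulfated steroids and bile acids, varied more between mice. It was at 6.66, 7.06 and 7.48 in the ND mice, at 6.84, 6.86 and 6.00 in the HFD mice, and at 7.06, 6.69 and 8.02 in the PRF 50 mice. All 3 groups overlapped. The HFD mean differed from the ND mean by -0.50 (95% interval -1.15 to 0.14, adjusted p = 0.461 in limma), and by -0.22 without HFD mouse 3 or -0.29 without ND mouse 9. The PRF 50 mean differed from the HFD mean by 0.69 ± 0.37 (adjusted p = 0.352), and by 0.31 (adjusted p = 0.6205) without PRF 50 mouse 10, the highest liver. These intervals are too wide to show that the groups were alike.

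Slco1a4, a transporter of bile acids and of the heart drug digoxin, is a known target of the xenobiotic receptor PXR. Its values were 5.13, 4.72 and 4.67 in the ND mice and 3.16, 3.57 and 3.65 in the PRF 50 mice. The HFD mice stood at 5.11, 3.81 and 3.98. Thus HFD mouse 1 was within the ND range, and its 2 group mates lay between the ND and PRF 50 mice. The fall in PRF 50 compared with ND was -1.38 ± 0.17 on the log2 scale (95% interval -1.79 to -0.98), or 27.96 ± 5.17 against 10.11 ± 1.93 FPKM, with an adjusted p of 0.0245 in limma. The call was lost with all 9 mice in 1 fit (adjusted p = 0.06359), without a minimum level (0.094), and without any one of ND mice 6 and 7 or PRF 50 mice 3 and 9 (0.05905 to 0.09446). In PRF 50 compared with HFD the groups did not overlap, and the difference of -0.84 ± 0.33 had an adjusted p of 0.209. Without HFD mouse 1 that difference was -0.44 (adjusted p = 0.2228), and the difference of HFD from ND went from -0.54 to -0.94 (adjusted p = 0.05132). Without HFD mouse 2 the latter was -0.29 (adjusted p = 0.8203 in limma).

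Slco2b1, a widely expressed member of the family that carries steroid sulfates and drugs, was the steadiest. Its values were 5.19, 5.25 and 5.09 in the ND mice, 5.42, 5.30 and 5.24 in the HFD mice, and 4.92, 5.15 and 5.11 in the PRF 50 mice. The PRF 50 mice lay below all HFD mice, by -0.26 ± 0.10, with an adjusted p of 0.195 in limma. The highest liver had 1.43 times the FPKM of the lowest.

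Slc22a7 encodes OAT2, which carries small organic anions and nucleotides such as cyclic GMP at the blood side of hepatocytes. It was at 3.98, 3.76 and 4.08 in the ND mice, at 4.24, 4.81 and 4.31 in the HFD mice, and at 4.90, 4.75 and 4.95 in the PRF 50 mice. The ND mice were below every other liver, and HFD mouse 2 reached into the range of the PRF 50 mice. Mean levels were 14.44 ± 1.72 FPKM for ND, 21.27 ± 5.04 FPKM for HFD and 28.27 ± 2.07 FPKM for PRF 50 (SD, n = 3). PRF 50 was above ND by 0.93 ± 0.12 on the log2 scale (95% interval 0.65 to 1.20, 1.96 times the FPKM, adjusted p = 0.0269 in limma). The steps from ND to HFD (0.51 ± 0.17, adjusted p = 0.218) and from HFD to PRF 50 (0.42 ± 0.16, adjusted p = 0.196) were not called by limma. Without HFD mouse 2, the former was 0.33 (adjusted p = 0.4921). The call against ND was kept with all 9 mice in 1 fit (0.03014) and lost without a minimum level (0.07768), and also when any mouse other than ND mouse 9 was left out (0.05143 to 0.1302).

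Slc22a26, the first of the cluster on chromosome 19, was at the edge of detection. It was at 0.23, 0.71 and 0.41 in the ND mice, at 1.07, 0.67 and 0.57 in the HFD mice, and at 0.25, 0.31 and 0.07 in the PRF 50 mice. The PRF 50 mice lay below all HFD mice. In the fit without a minimum level the difference was -0.56 ± 0.14, with an adjusted p of 0.125 in limma. Read depth is unknown, so the counting error of such low values cannot be given.

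Slc22a27, a neighbour in the same cluster, had the widest spread of group means. Its values were 0.68, 0.83 and 0.88 in the ND mice, 2.48, 3.26 and 2.93 in the HFD mice, and 0.72, 0.92 and 0.34 in the PRF 50 mice. All HFD mice were far above the other 6, and the ND and PRF 50 mice overlapped. HFD exceeded ND by 2.10 ± 0.19 on the log2 scale (95% interval 1.65 to 2.54), or 8.96 times the FPKM, with an adjusted p of 0.00419 in limma. PRF 50 fell by 2.23 on the log2 scale relative to HFD (SE 0.23, 95% interval -2.76 to -1.70), to 0.091 times the FPKM, with an adjusted p of 0.0116. Against ND, PRF 50 differed by -0.14 (95% interval -0.51 to 0.24) in the fit without a minimum level. Because Slc22a27 passed the minimum level only through the HFD group, the fit without one was also read, and it called both differences (adjusted p = 0.0276 and 0.03958). The rise was called whichever mouse was left out, and the fall missed the threshold without HFD mouse 3 (-2.21, adjusted p = 0.0529). With the FPKM of its near copy Slc22a29 added, an alternative chosen after the data had been seen, the differences were 2.31 (adjusted p = 0.001734) and -2.46 (adjusted p = 0.01333).

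Slc22a28 was the member of the cluster that fell on the HFD. It stood at 2.47, 2.85 and 2.59 in the ND mice, at 1.74, 1.55 and 1.55 in the HFD mice, and at 2.04, 1.51 and 2.90 in the PRF 50 mice. The ND and HFD mice were apart, and the PRF 50 mice ranged from below the HFD values to above the ND values. HFD was below ND by -1.03 ± 0.13 (95% interval -1.33 to -0.73), at 0.391 times the FPKM, with an adjusted p of 0.014 in limma. That call was lost with all 9 mice in 1 fit (0.1215), without a minimum level (0.06108), and without ND mouse 7 (0.0532), HFD mouse 2 (0.06319) or HFD mouse 3 (0.06885). PRF 50 differed from HFD by 0.54 ± 0.32 (adjusted p = 0.396), and by 0.16 (adjusted p = 0.6847) without PRF 50 mouse 10.

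Slc22a30, the near copy of Slc22a28, was higher and moved less. Its values were 5.34, 5.58 and 5.32 in the ND mice, 5.11, 5.12 and 5.02 in the HFD mice, and 5.04, 4.76 and 5.51 in the PRF 50 mice. The HFD mice were all below the ND mice, by -0.33 ± 0.11 (adjusted p = 0.22 in limma). PRF 50 differed from HFD by 0.02 (95% interval -0.40 to 0.43, adjusted p = 0.973), a sign that turned without HFD mouse 3 or PRF 50 mouse 10. With the FPKM of Slc22a28 and Slc22a30 added together, as their reads can be confused, HFD differed from ND by -0.41 and the pair was not called (adjusted p = 0.1462 in limma). Slc22a30 was the larger part of that sum, at 41.81 against 5.26 FPKM in the ND mice, so the sum had to follow it and says little about Slc22a28 alone. The difference of Slc22a28 from Slc22a30 on the log2 scale was -2.87, -2.73 and -2.73 in the ND mice and -3.37, -3.58 and -3.47 in the HFD mice, without overlap, and -2.99, -3.25 and -2.61 in the PRF 50 mice.

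The make-up of the Slc22 members shifted while their sum did not separate the groups. Their summed level was 62.6 ± 4.01 FPKM for ND, 63.6 ± 7.30 FPKM for HFD and 66.9 ± 13.3 FPKM for PRF 50 (SD, n = 3). Slc22a27 took 1.18% ± 0.185 of this sum in the ND mice, 10.3% ± 2.27 in the HFD mice and 0.982% ± 0.650 in the PRF 50 mice. The share of Slc22a7 was 23.2% ± 3.95, 33.2% ± 3.90 and 42.9% ± 5.39 in the same order, with the lowest HFD liver (30.2%) above the highest ND liver (26.1%). Slc22a30 held 66.7% ± 3.11, 52.1% ± 4.72 and 50.4% ± 3.87. Its HFD and PRF 50 livers overlapped, and all of them lay below the lowest ND liver (63.7%). Slc22a27 minus Slc22a28 on the log2 scale was above 0 in the 3 HFD livers (0.74 to 1.71) and below 0 in the other 6 (-2.56 to -0.59).

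**Figure D4:**
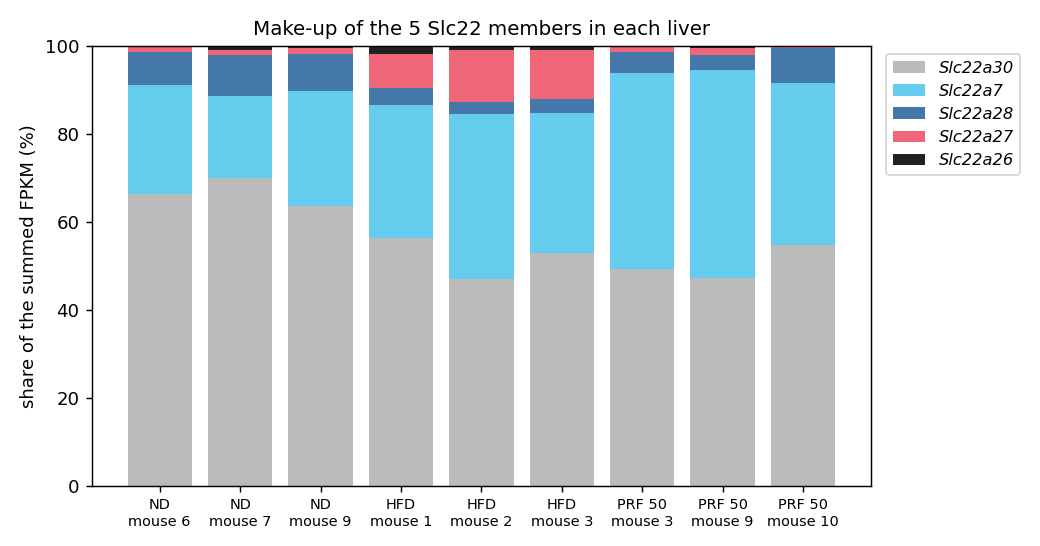
Share of each Slc22 member in the summed FPKM of the 5 (y axis, percent, from 0 to 100) in each of the 9 livers. Slc22a27 held 7.68% to 11.9% in the HFD livers and at most 1.62% in the other 6, and the share of Slc22a7 was lowest in the ND livers.

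The 3 genes whose pattern lay nearest to a member were sought for Slco1a4, Slc22a27 and Slc22a28, the members whose group means spanned at least 1 log2 unit. Likeness was the root-mean-square difference of values centred on each gene's mean over the 9 livers, among 10048 genes. For Slc22a27, whose own spread was 1.05, the nearest were Vnn1, a pantetheinase (0.316), Stap1 (0.328) and Cyp2a4, a steroid hydroxylase (0.346). Vnn1 averaged 4.89 for ND, 6.29 for HFD and 4.63 for PRF 50. For Slc22a28, with a spread of 0.545, they were Ugt2b1, a glucuronosyltransferase (0.161), the homeobox gene Hhex (0.252) and Cd276 (0.252). Ugt2b1 averaged 8.45 for ND, 7.47 for HFD and 7.86 for PRF 50. Like Slc22a28 it was higher in PRF 50 mouse 10 (8.68) than in any other liver. For Slco1a4, with a spread of 0.681, they were the carboxylesterase Ces1e (0.289), Afmid (0.351) and Serpinb1a (0.354). These likenesses describe 9 libraries that are shared by every gene.

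The other genes of the 2 families were mostly low or did not pass the test. Of 13 other Slco genes, 11 were in the tables and 4 of these were at 0 in all livers. Only 1 was tested in HFD vs. ND and 2 in PRF 50 vs. HFD. The only one called was Slco2a1, a prostaglandin transporter that endothelial cells also express, at 3.47, 3.95 and 3.31 in the ND mice, 2.67, 2.29 and 2.24 in the HFD mice, and 3.26, 3.18 and 3.20 in the PRF 50 mice. It was lower in HFD than in ND (-1.18, adjusted p = 0.0309 in limma) and higher in PRF 50 than in HFD (0.81, adjusted p = 0.0254). Summed endothelial markers were 53.6 to 92.4 FPKM in the ND mice, 21.01 to 66.81 FPKM in the HFD mice and 53.3 to 88.6 FPKM in the PRF 50 mice, with none of 10 called by limma (3 with an unadjusted p under 0.05 in HFD vs. ND, 1 in PRF 50 vs. HFD), and their part in the result on Slco2a1 was not tested. Of 20 other Slc22 genes, Slc22a29 alone was called among 7 tested in HFD vs. ND (1.56, adjusted p = 0.0077) and among 7 tested in PRF 50 vs. HFD (-1.60, adjusted p = 0.0175). Its values were 0.30, 0.69 and 0.49 in the ND mice, 1.84, 1.97 and 2.35 in the HFD mice, and 0.27, 0.86 and 0.23 in the PRF 50 mice, and it shares 30.5% of its 50-base words with other genes, most with Slc22a27. Slc22a29 reached the minimum level only through the HFD mice, at 3.21 FPKM against 0.416 and 0.397 FPKM for ND and PRF 50, so it had to differ to be tested and its calls are a description. In PRF 50 vs. ND, limma called 0 of 6 tested other Slc22 genes and 0 of 2 other Slco genes, and 0 of either had an unadjusted p under 0.05. The shares of all tested genes called were 1.33% in HFD vs. ND, 3.59% in PRF 50 vs. HFD and 0.458% in PRF 50 vs. ND.

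Other membrane transporters of bile acids and conjugates were described by a list of 16 genes. In HFD vs. ND, 0 of 12 tested were called by limma (1.33% of all tested genes), and 4 had an unadjusted p under 0.05. In PRF 50 vs. HFD, 2 of 13 were called, both lower, namely Abcc3, a conjugate exporter on the blood side of hepatocytes (-0.998, adjusted p = 0.0249), and Abcb1a, a P-glycoprotein (-0.75, adjusted p = 0.0257). Abcb1a reached the minimum level only through the HFD mice, so its call is a description. It averaged 2.17 FPKM there, against 0.954 FPKM for ND and 0.884 FPKM for PRF 50. Abcc3 stood at 5.79, 5.64 and 5.51 in the ND mice, 5.63, 5.23 and 5.82 in the HFD mice, and 4.62, 4.47 and 4.59 in the PRF 50 mice, and against ND it was the only one of 11 called (-1.09, adjusted p = 0.0128). Over all tested genes, limma called 3.59% in PRF 50 vs. HFD (2.16% as lower) and 0.458% in PRF 50 vs. ND. The median difference of the list in PRF 50 vs. HFD was -0.29 (all genes, -0.015).

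Of 17 genes for receptors and transcription factors that are known to control such transporters, 16 were tested. In PRF 50 vs. HFD the called ones were Nr1i2, which encodes PXR, and Nr1i3, which encodes the related xenobiotic receptor CAR, both lower (-0.67, adjusted p = 0.0369, and -0.93, adjusted p = 0.0336 in limma). Nr1i2 was at 4.87, 4.41 and 4.54 in the ND mice, 5.27, 4.84 and 5.12 in the HFD mice, and 4.51, 4.40 and 4.30 in the PRF 50 mice. Nr1i3 was at 5.65, 5.28 and 5.05, at 6.23, 5.71 and 6.22, and at 5.06, 5.32 and 4.97 in the same order. By limma 0 of the 16 were called in HFD vs. ND (7 with an unadjusted p under 0.05) and 0 in PRF 50 vs. ND (3 with an unadjusted p under 0.05). Among all tested genes, 3.59% were called in PRF 50 vs. HFD (2.16% as lower), 1.33% in HFD vs. ND and 0.458% in PRF 50 vs. ND.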

How the data were processed

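Liver RNA-Seq of 9 mice was used, 3 per group, with groups taken from the labels. Paired-end reads of poly(A) RNA were trimmed and mapped by the authors with TopHat to mm10 (both per the submitters' processing notes), and the authors computed FPKM with Cufflinks and normalized it geometrically. Versions, annotation, and the handling of strand and of reads that map to several genes are not given in the sources used here. The authors deposited 1 log2 value per gene and mouse, taken as log2(FPKM + 1), where the added 1 is inferred from the lowest value of 0. Read counts were not used here, so depth is known only relatively, from steps between low values.

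Groups were compared in pairs with limma (version 3.58.1, R version 4.3.3; lmFit, eBayes with a trend) on the 6 mice concerned, over genes averaging 1 FPKM or more, with Benjamini-Hochberg adjustment. Every adjusted p is from limma and two-sided. Steps were tested on simulated data. Gene positions and transcripts were from GENCODE M21 and upstream sequences from RefSeq (GRCm38.p6). No protein sequence was used here.

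The members and lists were chosen with earlier results of these data known. Named genes are the 9 members, called genes of the other lists, and the 3 nearest in pattern to members spanning at least 1 log2 unit. Rnu6 and Slc22a29, as a near copy, were named after their values were seen. Alternatives were all 9 mice in 1 fit, each mouse left out, a pseudocount of 0.1, no minimum, a minimum of 10 FPKM, quantile normalization, median-of-ratios scaling, and eBayes without a trend. Near copies summed was added after the data had been seen.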

Additional observations from a re-analysis of the deposited data

How the results depend on the processing

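HFD vs. ND had 2 members called, and 1 with all 9 mice in 1 fit, 1 without a minimum level, and 0 with a minimum of 10 FPKM, where Slc22a27 and Slc22a28 are not tested. Leaving out 1 mouse gave 1 to 2, and also 1 to 2 past p under 0.05 with a fold above 2, where the minimum of 10 FPKM gave 0. PRF 50 vs. HFD had 1 called. The minimum of 10 FPKM gave 0 under both criteria, as Slc22a27 is then not tested. Leaving out 1 mouse gave 0 to 1 called, and 1 to 2 past p under 0.05 with a fold above 2, since Slco1a4 was added without HFD mouse 2 or 3. PRF 50 vs. ND had 2 called, and 1 with all 9 mice in 1 fit, 0 without a minimum level, and 0 to 2 when 1 mouse was left out, the 0 coming without ND mouse 6, ND mouse 7, PRF 50 mouse 3 or PRF 50 mouse 9. In PRF 50 vs. HFD, the difference of Slc22a30 was 0.02, turned to -0.02 without HFD mouse 3 and ranged from -0.19 (without PRF 50 mouse 10) to 0.19 with 1 mouse left out. In PRF 50 vs. ND, those of Slco1a1 and Slco1b2 turned to -0.01 each without ND mouse 6, and ranged from -0.19 to 0.47 and from -0.085 to 0.21, lowest without PRF 50 mouse 10. None of these was called. Over all genes, calls went from 133, 362 and 46 (HFD vs. ND, PRF 50 vs. HFD, PRF 50 vs. ND) to 37, 126 and 11 without a minimum, when more genes are tested, and to 35 to 140, 15 to 242 and 4 to 71 with 1 mouse left out. PRF 50 vs. ND had 107 with all 9 mice in 1 fit. The cause of the changes under 1 fit was not tested. No paired analysis was possible because the groups compared consist of different animals.

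With 3 mice per group, small differences of the abundant members cannot be told from no difference. Read depth is unknown, so the values of Slc22a26, Slc22a27 and Slc22a28, which are low, carry an unknown counting error. Near copies limit Slc22a27, Slc22a28 and Slc22a30.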

Other observations

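Genes with known sex bias in mouse liver were described beside the members, since Slco1a1 and Slco1a4 are of that kind. For both lists that follow, the shares of all tested genes called were 1.33% (HFD vs. ND), 3.59% (PRF 50 vs. HFD) and 0.458% (PRF 50 vs. ND). Of 16 genes that are higher in male liver, 7 of 14 tested were called lower in HFD than in ND. By direction 12 were lower and 2 higher (median of the list -1.18, all genes -0.01 on the log2 scale). Those called included Hsd3b5, a steroid reductase (-2.68, adjusted p = 0.0315 in limma), and Selenbp2 (-2.34, adjusted p = 0.000854). In PRF 50 compared with HFD, 6 of 15 were called higher, with 12 higher and 3 lower by direction (median 1.16). In PRF 50 compared with ND, 1 of 15 was called higher and 1 lower, with 8 higher and 7 lower by direction. There 6 had an unadjusted p under 0.05. Some of those called reached the minimum level only through the group where they were high, so these counts do not describe the whole list. An example was Moxd1 (20.84 FPKM for PRF 50, 0.113 for ND and listed at 0 for HFD), the gene called higher against ND. The list was compiled with earlier results of these data known, so its direction is no independent evidence.

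Of 20 genes that are higher in female liver, 6 of 8 tested were called higher in HFD than in ND. By direction 7 were higher and 1 lower (median 1.97). Cyp2b9, a steroid-metabolizing cytochrome P450, was among those called (adjusted p = 0.00419 in limma). It was at 2.84, 1.08 and 0.66 in the ND mice and 6.57, 7.14 and 7.41 in the HFD mice. In PRF 50 compared with HFD, 5 of 8 were called lower, and all 8 were lower by direction (median -2.06). In PRF 50 compared with ND limma called 0 of 6 (3 with an unadjusted p under 0.05), with 2 higher and 4 lower by direction. Only 8 of the 20 reached the minimum level in HFD vs. ND and in PRF 50 vs. HFD, so these counts do not describe the whole list. Among those called, Cyp2b13 and Hao2 did so only through the HFD mice, so their calls are a description. They averaged 5.50 and 2.42 FPKM for HFD, 0.090 and 0.066 FPKM for ND, and 0.017 and 0.035 FPKM for PRF 50. The same caution holds for this list's choice.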
